A study of Mus musculus with 8 samples.

Results

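The BMP pathway and its Id target genes were followed in mouse epiblast-like cells with and without the transcription factor GRHL2. The set was 10 genes of the 16593 gene symbols on the array, chosen by symbol: the ligands Bmp4 and Bmp7, the type I receptor Bmpr1a, the intracellular mediators Smad1, Smad5 and Smad6, and the targets Id1, Id2, Id3 and Id4. All probes that the platform annotation gave to these symbols were taken, which were 17 of 25697 probes. Of these, 16 probes and 9 genes were detected (detection p-value under 0.05) on at least 4 of the 8 arrays and were tested, among 8830 genes in all. Id4 was the member that was not.

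Both groups were V6.5 cells, a mouse embryonic stem cell line. The wildtype group held 4 subclones and the GRHL2 knockout group 4 clones, each hybridised to 1 Illumina bead array. All cells grew in medium with 15% fetal bovine serum, and the embryonic stem cells also received LIF and the 2i inhibitors of GSK and MEK. Every sample of both groups had been without LIF and 2i for 3 days, so the comparison has no untreated or day 0 arm. How the knockout was made, and whether the subclones and clones came from separate cultures or passages, is not stated in the labels. P-values therefore measure the spread between these arrays, which may be partly technical.

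Bone morphogenetic proteins are secreted ligands of the TGF-beta family that bind paired type I and type II serine/threonine kinase receptors. The type I receptor phosphorylates the receptor Smads (Smad1, Smad5 and the related Smad9), which join Smad4, enter the nucleus and switch on target genes, the Id genes among them, while Smad6 inhibits the same step. Id proteins are helix-loop-helix proteins without a DNA-binding region that hold E proteins in inactive dimers, and in mouse embryonic stem cells the BMP and Id axis is known for restraining differentiation, with serum as one source of BMP activity.

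Id3 fell in the knockout clones to 52.7% of the wildtype level, and it was 1 of 9 tested members whose gene-level change passed the test (limma, adjusted p = 0.0145), against 13.7% of all 8830 genes (7.17% called lower and 6.55% higher). One called gene among 9 is near that background, so the count says nothing particular about the set. The next largest change was that of Id2, whose adjusted p was 0.0544. Groups did not overlap for 2 of 9 members, Id2 and Id3, beside 23.2% of all genes. Id1 had a log2 change of −0.11 with a wide error (SE 0.32). Ligands, the receptor and the Smads had log2 changes between −0.40 and 0.21 on the probes that stood for them, and none passed the test. The median log2 change of the 9 members was −0.28, beside 0.013 over all genes, and 7 of the 9 were below 0, beside 48.6% of all genes. That count was 6 with median scaling, 4 with array mean intensity as a covariate, and 9 without normalization between arrays. In these settings the median of all genes was itself 0.0996, 0.045 and −0.58. Below that median lay 8 members with median scaling, 6 with the covariate and 8 without normalization, beside 7 as reported. On single probes the picture was less even: second probes of Bmpr1a and Smad1 also fell, while other probes of the same genes did not pass.

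Values below are log2 intensities after background correction and quantile normalization, 1 value an array, and a change is the knockout mean less the wildtype mean, with its moderated standard error (SE). Levels of different probes are not compared. Bulk RNA was measured, so fewer cells that express a gene and less RNA per cell cannot be told apart.

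The targeted gene was the first check of the labels. Grhl2 measured 8.84 ± 0.60 (SD, n = 4) in wildtype and 7.71 ± 0.43 (n = 4) in knockout, a change of −1.13 (SE 0.30, limma adjusted p = 0.0369), with detection on all 4 knockout arrays. That call was lost when any one of 6 arrays was left out, namely wildtype 1, 2 or 4 or knockout 2, 3 or 4 (limma adjusted p up to 0.0835). The labels do not say which part of the gene was removed, so remaining signal says nothing about the protein. Epiblast-like markers were present, with 8 of 9 listed genes retained and Sox3 detected on no array. Between 12414 and 13250 probes were detected on each array. Knockout arrays were dimmer before normalization, with a mean intensity of 508 ± 51.5 (SD, n = 4) against 703 ± 32.4, or 72.3% (exact two-sided permutation p = 0.0286, the smallest that 70 assignments allow). This moved with every comparison here and was equalised by quantile normalization. On the knockout 1 array, 90.65% of the 492 genes of chromosome 8 were below the average of knockout 2 to 4. Their median difference was −0.43 on the log2 scale, and Smad1 lies there. Chromosome 6 genes had a median difference of −0.16 on the knockout 1 array. On the wildtype 4 array the 716 genes of chromosome 2, which holds Id1 and Bmp7, were higher by a median of 0.15. Of these, 23.32% were below the average of the other wildtype arrays. On the wildtype 3 array the genes of chromosome 6, which holds no member, were higher by a median of 0.40. The summed normalized intensity of 9 listed trophoblast markers (6 of 9 retained, Elf5 and Hand1 detected on no array) reached 2757 on that array, while the remaining wildtype arrays had 544 to 642 and knockout arrays 306 to 438.

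Bmp4, a ligand that in the mouse embryo signals from extraembryonic ectoderm to epiblast, measured 7.04, 6.69, 7.27 and 6.60 in wildtype subclones 1 to 4. In knockout clones 1 to 4 it measured 6.11, 6.61, 6.35 and 6.94. Knockout clones 2 and 4 each lay above at least 1 wildtype array, so the groups overlapped. The change was −0.40 (SE 0.20, limma adjusted p = 0.207), with a 95% interval from −0.86 to 0.06.

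Bmp7, a second ligand, was close to the detection limit. It was detected on wildtype arrays 1, 3 and 4 and on knockout array 4, and its log2 values were 5.18, 4.83, 6.30 and 5.10 in wildtype and 4.82, 4.91, 4.78 and 5.47 in knockout. One array, wildtype 3, was far above all the others. The change was −0.36 (SE 0.29, limma adjusted p = 0.431) with all arrays and −0.04 without wildtype 3, the array that also had the high trophoblast marker sum. The part of those markers in the Bmp7 value was not tested.

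Among 14 other BMP and GDF ligand genes with a probe, 10 were detected on no array, including Bmp2 and Bmp6. The other 4 were tested and none passed, with a median change of 0.10. The brightest was Gdf3, a ligand of pluripotent cells, at 12.05 ± 0.29 (SD, n = 4) in wildtype and 12.28 ± 0.06 in knockout, a change of 0.23 (SE 0.14, limma adjusted p = 0.296). Gdf3 lies on chromosome 6, and its highest wildtype value, 12.44, was on wildtype 3. Without wildtype 3 the change was 0.36, and without both wildtype 3 and knockout 1 it was 0.39 and passed (limma adjusted p = 0.0449).

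**Figure D1:**
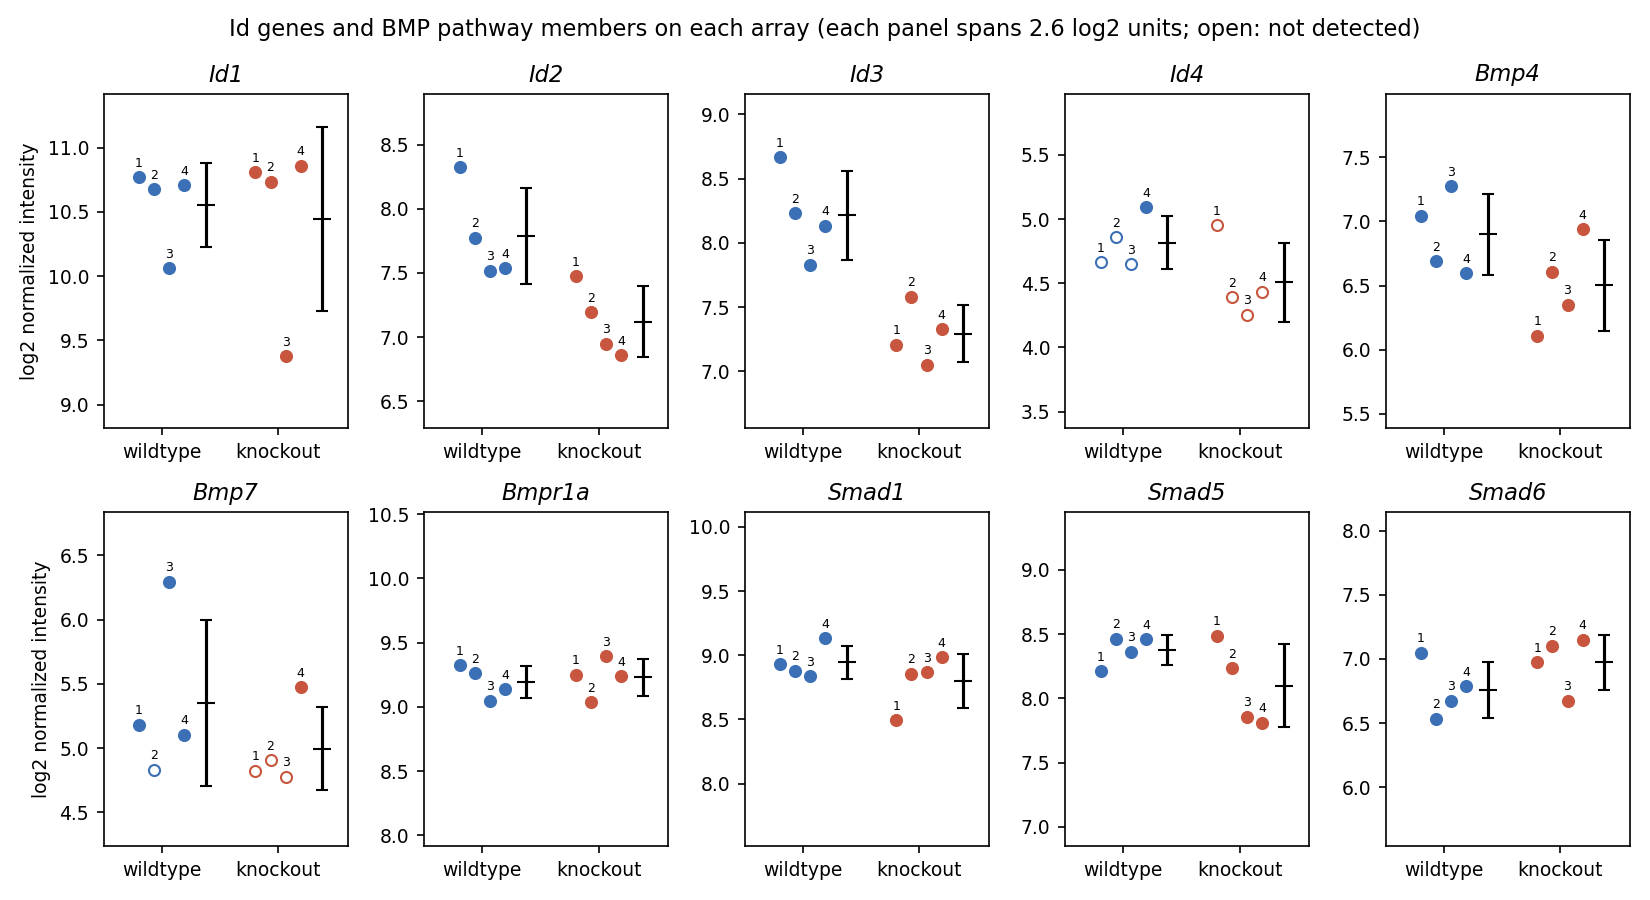
Log2 normalized intensity of the 10 members on the probe that stands for each gene (for Id4, its probe that was not retained), by group. Each point is an array, numbered by subclone or clone, open where the probe was not detected, and bars give the mean and SD of 4 arrays. Id2 and Id3 show no overlap between groups, Id1 has a low array 3 in both groups, and Bmp7 has a single high wildtype array.

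Bmpr1a encodes a type I BMP receptor, and its 2 probes gave different results. On the brighter probe, ILMN_1251119, wildtype arrays measured 9.32, 9.26, 9.05 and 9.14 and knockout arrays 9.25, 9.04, 9.39 and 9.24. The groups overlapped, and the change was 0.04 (SE 0.11, limma adjusted p = 0.848), with a 95% interval from −0.22 to 0.29. On the dimmer probe, ILMN_2653312, wildtype arrays measured 7.89, 7.74, 7.81 and 7.52 and knockout arrays 7.36, 7.27, 7.34 and 7.33. All knockout arrays lay below all wildtype arrays on that probe, at 75.2% of the wildtype level. It fell by 0.41 (SE 0.11, limma adjusted p over probes = 0.0389), a call that was lost when any one array other than wildtype 4 was left out (limma adjusted p from 0.0513 to 0.0930).

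The difference between the 2 Bmpr1a probes' changes was −0.45, and it did not overlap between groups, being lower on each of the 4 knockout arrays (exact two-sided permutation p = 0.0286). After adjustment over the 9 pairs of probes of one gene in the set, p was 0.103, which the smallest possible raw p cannot bring under 0.05 unless several pairs reach it. These pair tests were chosen after the values had been seen.

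The 6 tested genes among the other BMP receptors and co-receptors had no call and a median change of 0.14. The brightest, Acvr2b, a type II receptor shared with activin, had a change of 0.08 (SE 0.14, limma adjusted p = 0.733). Bmpr1b, another type I receptor, had the lowest value, −0.58 (SE 0.24, limma adjusted p = 0.125), and is named as the list's extreme after its value was seen.

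Smad1, a receptor Smad, had 3 retained probes. The probe standing for the gene, ILMN_2953700, measured 8.93, 8.88, 8.84 and 9.13 in wildtype and 8.49, 8.86, 8.87 and 8.98 in knockout. Knockout array 1 was the lowest and the other 3 lay within the wildtype range. The change was −0.14 (SE 0.13, limma adjusted p = 0.473), and −0.04 without knockout 1.

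A second Smad1 probe, ILMN_2671572, measured 9.22, 8.97, 8.85 and 9.11 in wildtype and 8.19, 8.64, 8.61 and 8.49 in knockout. The groups did not overlap, and knockout was at 68.2% of wildtype. The probe fell by 0.55 (SE 0.14, limma adjusted p over probes = 0.0297). Knockout 1 was lower than the mean of the other knockout arrays by a difference of −0.40 on this probe and −0.41 on the first, beside the −0.43 of chromosome 8 genes on that array. Without knockout 1 the second probe kept a change of −0.45 (limma adjusted p = 0.0443), whereas leaving out wildtype 1, 2 or 4 or knockout 3 or 4 took its adjusted p to between 0.0517 and 0.0778. The third probe, ILMN_1234354, detected on 3 wildtype and 2 knockout arrays, had a change of 0.00094 (SE 0.21). The changes of the first and second probe differed by −0.41 with no overlap between groups (exact permutation p = 0.0286, adjusted 0.103 over the 9 pairs).

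Smad5, the second receptor Smad of the set, also had 3 probes, and none passed the test. On its brightest probe wildtype measured 8.21, 8.47, 8.36 and 8.46 and knockout 8.49, 8.23, 7.86 and 7.81, a change of −0.28 (SE 0.16, limma adjusted p = 0.259). Knockout arrays 3 and 4 were below all wildtype arrays and knockout 1 was above them. The other probes gave 0.07 (SE 0.14) and 0.36 (SE 0.14, limma adjusted p over probes = 0.122), so the sign depended on the probe.

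Smad6, the inhibitory Smad and itself a BMP target, measured 7.05, 6.53, 6.67 and 6.79 in wildtype and 6.97, 7.10, 6.67 and 7.15 in knockout. The groups overlapped, and the change was 0.21 (SE 0.15, limma adjusted p = 0.344). Its dimmer probe gave −0.15 (SE 0.14, limma adjusted p over probes = 0.491). Of the other Smads and intracellular regulators, 14 were tested with 0 calls by limma and a median of −0.05. At an unadjusted p under 0.05 there were 2 (Fkbp1a and Zfp423, named after their values were seen). Their limma adjusted p was 0.112 and 0.0629. The share of all genes at that unadjusted threshold was not counted, so the 2 are not read as changes. Ppm1a, a phosphatase of receptor Smads and the brightest gene of this list, had a change of 0.01 (SE 0.10).

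**Figure D2:**
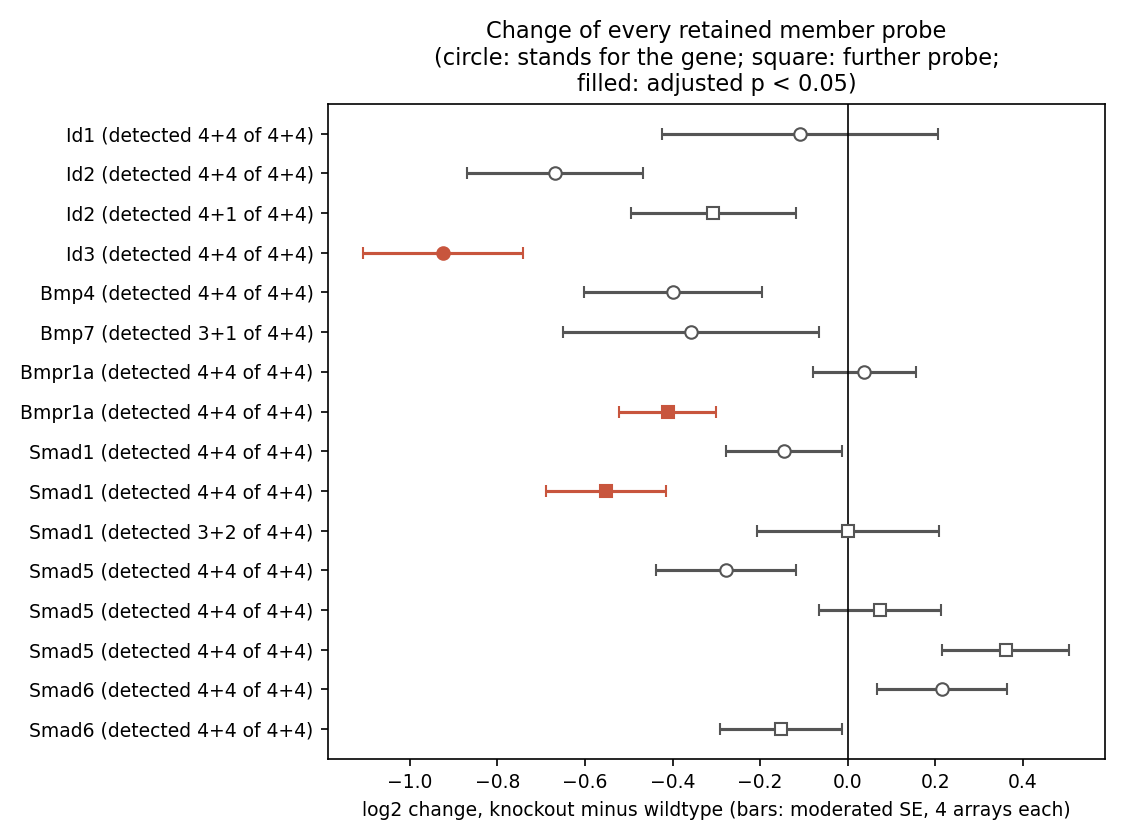
Log2 change, knockout minus wildtype, of the 16 retained member probes, with bars of 1 moderated SE (4 arrays a group). Circles are the probes that stand for a gene, squares further probes, and filled points passed an adjusted p of 0.05. Id3 and the second probes of Bmpr1a and Smad1 are filled, all below 0.

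Over single probes, 3 of 16 were called and all 3 were lower in knockout, beside 13.2% of all 12037 tested probes called in either direction and 6.92% called lower. The authors' deposited table, made from the same arrays, had the same 3 probes past an adjusted p of 0.05 among the 17, beside 8.62% of its 25697 probes, 4.28% called lower. In the authors' deposited table the log2 fold changes were −0.57 for Id3 (adjusted p = 0.0123), −0.40 for the Smad1 probe (0.0139) and −0.22 for the Bmpr1a probe (0.0299). Id2 was at −0.38 in the authors' deposited table (0.0667).

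The Id genes were the readout end of the set. Their promoters are shown because Id genes are textbook direct targets of Smads. The sequences run 5′ to 3′ from 250 bases before to 50 after the RefSeq start on build GRCm38.p6, and were available for 8 of the 10 members, not for Id1 and Bmp7. Id2 is shown from chr12:25096043-25096342 (minus strand), Id3 from chr4:136143572-136143871 (plus strand) and Id4 from chr13:48260866-48261165 (plus strand). Capitals mark matches on either strand to GGCGCC, a GC-rich Smad element, and to CAGAC, the Smad box.
Id2: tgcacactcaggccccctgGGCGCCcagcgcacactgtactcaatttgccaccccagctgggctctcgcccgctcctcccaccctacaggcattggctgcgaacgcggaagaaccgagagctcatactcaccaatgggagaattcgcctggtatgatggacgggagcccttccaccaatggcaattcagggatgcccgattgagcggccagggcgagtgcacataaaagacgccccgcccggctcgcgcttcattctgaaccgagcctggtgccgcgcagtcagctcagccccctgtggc
Id3: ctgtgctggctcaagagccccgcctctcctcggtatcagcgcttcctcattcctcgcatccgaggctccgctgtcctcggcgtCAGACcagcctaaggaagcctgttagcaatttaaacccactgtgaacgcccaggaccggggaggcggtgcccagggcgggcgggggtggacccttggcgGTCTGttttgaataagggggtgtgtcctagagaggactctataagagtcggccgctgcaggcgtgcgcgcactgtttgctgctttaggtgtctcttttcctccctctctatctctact
Id4: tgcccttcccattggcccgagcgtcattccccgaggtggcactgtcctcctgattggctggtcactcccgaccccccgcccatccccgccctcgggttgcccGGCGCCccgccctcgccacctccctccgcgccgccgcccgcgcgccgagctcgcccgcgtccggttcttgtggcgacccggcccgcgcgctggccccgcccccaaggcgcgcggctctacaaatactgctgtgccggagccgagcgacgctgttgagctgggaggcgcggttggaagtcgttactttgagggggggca

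Id3, the member that fell, held 2 matches to CAGAC, at −167 and −68 from the start, and none to GGCGCC. Id2 held 1 match to GGCGCC at −231 and Id4 1 at −148, and neither held CAGAC. These letters are common: 49.6% of 32851 RefSeq promoter windows of 300 bases held CAGAC and 11.9% held GGCGCC. The grainyhead-like sequence AACCNGTT, found in 2.09% of windows, was in none of the 8 members' windows. A match is a description of the sequence and was not measured as binding. The GC content was 63.3% for Id2, 60.0% for Id3 and 73.3% for Id4, beside a median of 52.7% over all windows.

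Id3 measured 8.67, 8.23, 7.83 and 8.13 in wildtype subclones 1 to 4 and 7.21, 7.58, 7.05 and 7.33 in knockout clones 1 to 4. Every knockout array lay below every wildtype array, a pattern shared by 10.8% of all genes. The means were 8.22 ± 0.35 (SD, n = 4) and 7.29 ± 0.22 (n = 4), a change of −0.92 (SE 0.18, 95% interval −1.33 to −0.52, limma adjusted p = 0.0145). This is 1.90-fold lower. Before normalization the Id3 probe had intensities of 641, 472, 389 and 512 in wildtype and 245, 250, 218 and 212 in knockout. These groups also did not overlap. Of the other members, on the probe standing for each gene and on the Id4 probe, only Id1 had unnormalized values that overlapped. Knockout arrays were dimmer as a whole. The lack of overlap before normalization was thus shared by nearly all members and is not read as particular to Id3. The share of all genes with it was not counted. With 1 array left out in turn the change stayed between −1.05 and −0.77 and past the threshold (limma adjusted p from 0.0091 to 0.0405). With the mean intensity of each array as a covariate the change was −0.92 and the adjusted p 0.515. Brightness did not overlap between the groups either, so the part of each cannot be told apart.

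Id2 measured 8.33, 7.78, 7.52 and 7.54 in wildtype and 7.48, 7.19, 6.95 and 6.86 in knockout. The groups did not overlap, but the lowest wildtype and the highest knockout value were 7.52 and 7.48. The change was −0.67 (SE 0.20, 95% interval −1.12 to −0.22), at 62.9% of the wildtype level, and did not pass the test (limma adjusted p = 0.0544). It crossed the threshold in 10 of 22 alternative settings, including without wildtype 3 (limma adjusted p = 0.0433) or without knockout 1 (0.0359). Leaving out any other array took the limma adjusted p to between 0.0731 and 0.123. With array mean intensity as a covariate the Id2 change was 0.0232. The dimmer Id2 probe, detected on all wildtype arrays and 1 knockout array, had a change of −0.31 (SE 0.19, limma adjusted p over probes = 0.293).

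Id1 measured 10.77, 10.68, 10.06 and 10.71 in wildtype and 10.81, 10.73, 9.38 and 10.86 in knockout. Array 3 was the low one in each group, and the other 3 arrays of each group lay close together, from 10.68 to 10.77 in wildtype and from 10.73 to 10.86 in knockout. The change was −0.11 (SE 0.32, limma adjusted p = 0.841), with a 95% interval from −0.82 to 0.60 that includes the size seen for Id2. Without knockout 3 it was 0.25 (limma adjusted p = 0.394).

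Id4 was detected on wildtype array 4 only. Its intensities before normalization were 151, 153, 145 and 170 in wildtype and 142, 120, 114 and 121 in knockout, in a range where most values were not above the negative controls. Id4 was not tested in the main fit, and no fold is given from it. Only the setting without a detection filter included Id4. In the authors' deposited table it had a log2 fold change of −0.16 (adjusted p = 0.129).

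Whether the Id genes differed from each other was compared over the 3 tested pairs, a comparison chosen after the values had been seen. The change of Id3 less that of Id1 was −0.81 (exact permutation p = 0.0857), and the change of Id2 less that of Id1 was −0.56 (0.2). Between Id3 and Id2 the difference was −0.26 (0.257), and all 3 had an adjusted p of 0.257. No pair of Id genes was thus shown to differ.

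The genes whose values over the 8 arrays were most like those of Id3 were Fzd6, a Frizzled receptor (Pearson r = 0.984), Lyplal1 (0.982) and Rwdd4a (0.980). All 8 points carry the group difference, and the likeness is given as a description.

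**Figure D3:**
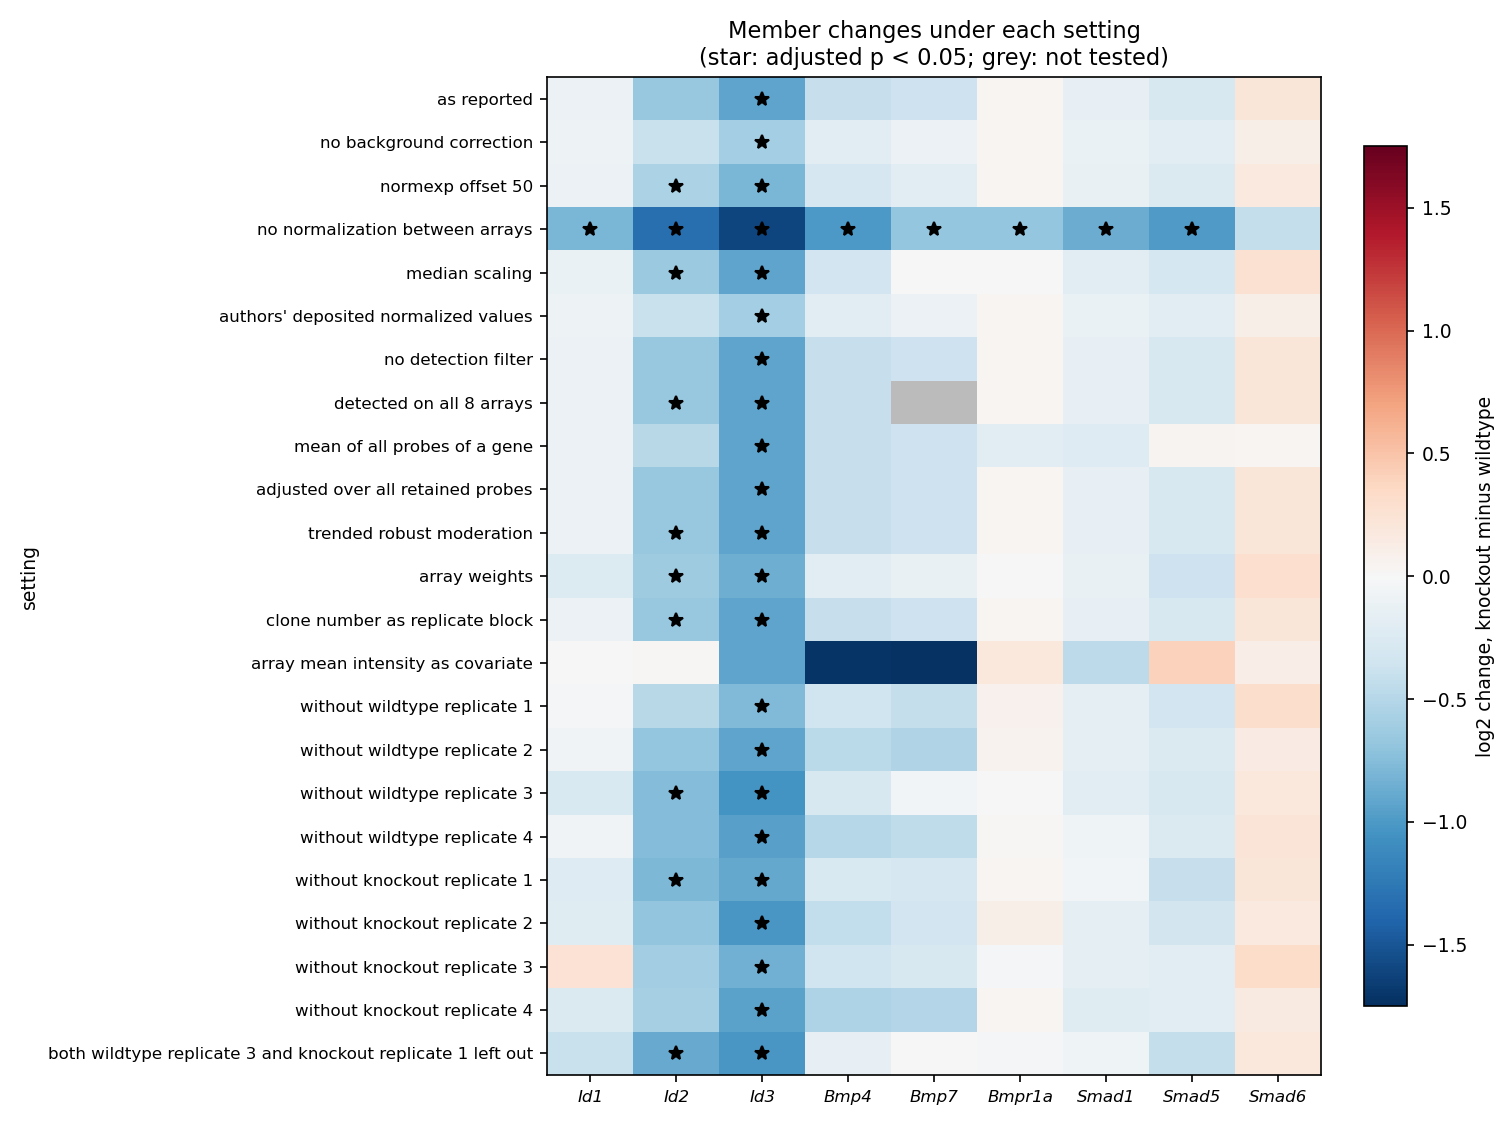
Log2 change of each tested member (columns) as reported and in each of the 22 alternative settings (rows), with a star where the adjusted p was under 0.05 and grey where the gene was not tested. Id3 is starred in every setting but the array intensity covariate, Id2 in 10 of 22, and only without normalization between arrays do other members carry stars.

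The wider pathway was read from 94 further genes in 6 lists, of which 47 were retained. Of these, 2 were higher and 3 lower in knockout, beside 13.7% of all genes called, and the median change was 0.011. A difference of that share from the background was not tested. Among target genes 2 of 10 tested fell, beside 7.17% of all genes called lower, 8 of 10 were below 0, beside 48.6%, and the median was −0.63, beside 0.013. Several of these were detected on all wildtype arrays but not on every knockout array, so the wildtype arrays alone would have met the detection filter. Tfap2a, an AP-2 transcription factor of surface ectoderm and trophoblast, measured 7.72, 6.93, 7.38 and 6.77 in wildtype and 4.79, 6.06, 5.58 and 6.37 in knockout. The groups did not overlap, and knockout 1 was not above background. It fell by 1.50 (SE 0.33, limma adjusted p = 0.0203), and its second probe by 0.79 (limma adjusted p over probes = 0.0495). The gene-level call was lost without wildtype 1 (0.0577) or knockout 3 (0.0512).

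Hey1, a Hairy-related repressor that responds to Notch as well as BMP, measured 6.69, 6.83, 6.40 and 6.67 in wildtype and 5.67, 6.15, 5.98 and 5.96 in knockout. It did not overlap between groups and fell by 0.71 (SE 0.14, limma adjusted p = 0.0134). Gata2 (−1.63, SE 0.50, limma adjusted p = 0.0565), Gata3 (−1.27, SE 0.46, 0.0884) and Dlx3 (−0.62, SE 0.19, 0.0545) did not pass, and are named after their values were seen. Gata2 and Gata3 were not above background on 1 knockout array each and Dlx3 on 2, so these differences rest partly on values at background. Gata3 is also on the trophoblast marker list, whose sum was higher on each wildtype array (544 to 2757) than on any knockout array (306 to 438). Sums of 3 other marker lists also did not overlap between groups. Naive pluripotency markers summed to 4909 to 6288 in wildtype and 3180 to 3791 in knockout. Primitive endoderm markers summed to 1104 to 1528 and 948 to 1081, and neuroectoderm markers to 588 to 1022 and 1140 to 1714. Single markers within a list differed. All 6 retained trophoblast markers (9 listed) were below 0, but only Tfap2c was called (−2.62), and Ascl2 was at −0.09. Bright probes weigh most in a sum, and Tfap2c had the highest wildtype mean of the retained trophoblast markers (8.60, SD 1.52). Of 6 retained naive markers (10 listed), 4 were below 0 and only Nanog was called (−1.03), while Klf5 was at 0.29. Of 3 retained primitive endoderm markers (9 listed), Col4a1 was called lower (−0.79) and Lama1 higher (0.91). Of 3 retained neuroectoderm markers (8 listed), only Irx3 was called (1.29), while Nes was at 0.09. The part of any of these marker lists in the target gene values was not tested.

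Of 8 tested extracellular antagonists and modulators, 1 rose, beside 6.55% of all genes called higher. In this list 1 of 8 changes was below 0, beside 48.6% of all genes, and the median was 0.46. Fst, follistatin, which binds activin and some BMPs, measured 6.31, 5.996, 5.42 and 6.05 in wildtype and 7.51, 7.02, 6.77 and 7.08 in knockout. All knockout arrays lay above all wildtype arrays, and Fst rose by 1.15 (SE 0.21, limma adjusted p = 0.0113), or 2.22-fold. Before normalization its intensities overlapped, at 169 to 224 in wildtype and 196 to 274 in knockout. Nog, which encodes the BMP antagonist noggin, was detected on no array.

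Of 6 tested E proteins and other helix-loop-helix partners, 1 rose and 1 fell, beside 6.55% and 7.17% of all genes. Tcf15, a class II factor of epiblast and somites in the mouse, measured 8.88, 8.35, 8.48 and 9.10 in wildtype and 10.34, 10.55, 9.39 and 10.33 in knockout, a rise of 1.45 (SE 0.26, limma adjusted p = 0.0108). Tcf4, an E protein bound by Id proteins, measured 10.47, 10.37, 10.15 and 10.40 in wildtype and 9.77, 9.81, 9.78 and 9.86 in knockout, and fell by 0.54 (SE 0.10, limma adjusted p = 0.0137). Neither gene's groups overlapped after normalization. Before it, Tcf15 intensities overlapped, at 501 to 883 in wildtype and 640 to 1305 in knockout, while those of Tcf4 did not.

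**Figure D4:**
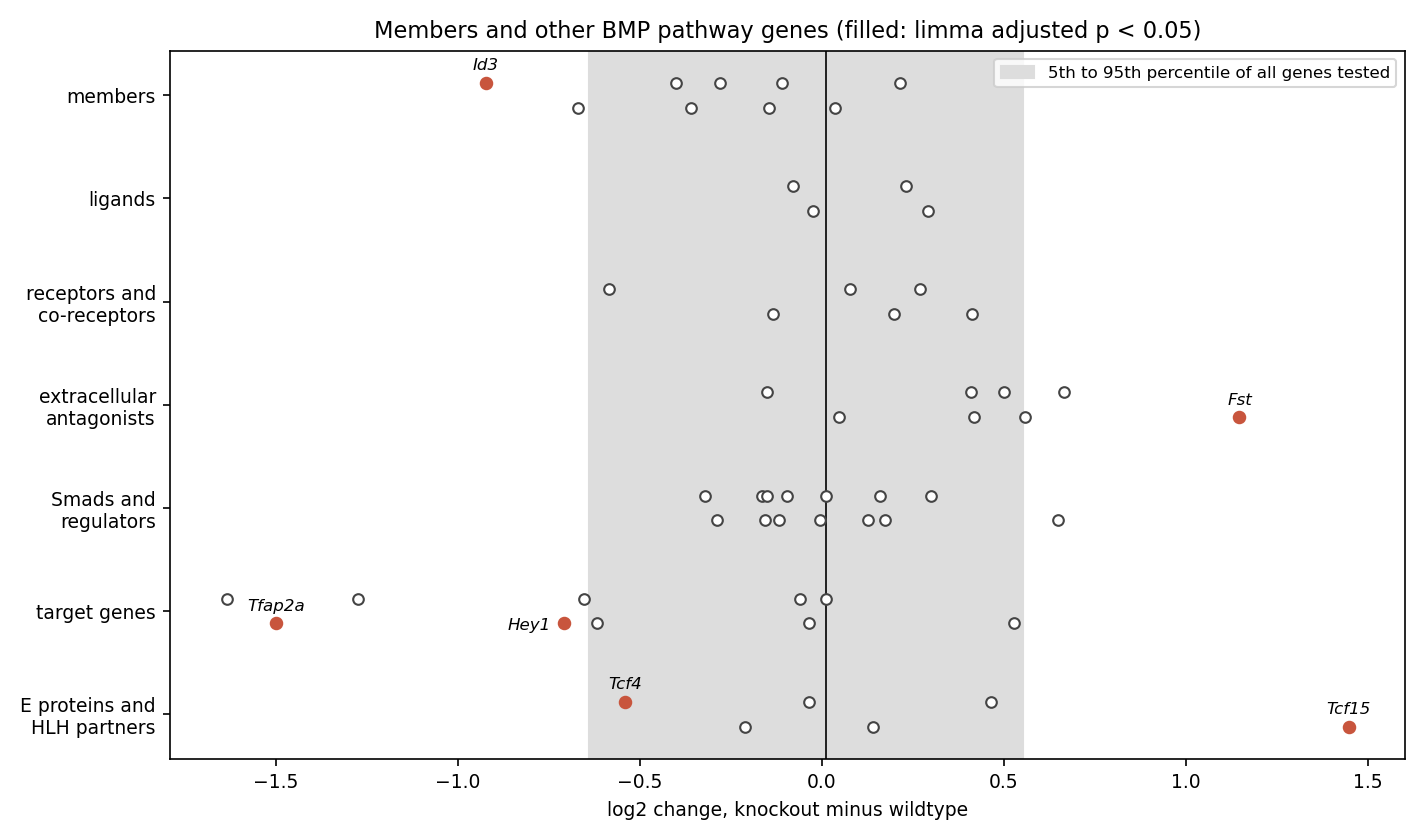
Log2 change, knockout minus wildtype, of the 9 tested members and the 47 other tested pathway genes by list (Hes1 is in 2 lists). Filled, named points passed a limma adjusted p of 0.05, the line is the median of all 8830 genes (0.013) and the band their 5th to 95th percentile (−0.64 to 0.55). Most points lie in the band, and Id2 and Id3 are the members to the left of it.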

How the data were processed

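RNA of 4 wildtype and 4 GRHL2 knockout samples was hybridised to Illumina MouseRef-8 v2.0 arrays, 1 array a sample, and groups came from the genotype label. Each probe had, per the file headers of the deposited profile, a mean bead intensity, not background-subtracted or normalized, with a detection p-value, a bead standard error in the same signal units and a count of beads. The authors also deposited log2 values after quantile normalization, and a comparison table with log2 fold changes, p-values and score columns (t and log odds). The submitters' processing notes name limma, with no version. Software for reading the scanner images is not stated in those sources.

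Normalization used the neqc function (limma 3.58.1, R 4.3.3), which estimated background from detection p-values, added an offset of 16 and equalised quantiles. A probe was retained if detected at p under 0.05 on 4 arrays or more, and the brightest probe stood for a gene. The two-sided test was that of lmFit with eBayes in limma. P-values were adjusted by Benjamini-Hochberg over 8830 genes, or over 12037 probes for further probes, at a threshold of 0.05. The script was tested on simulated data. Symbols came from the platform annotation (23978 probes had 1 symbol, 0 several and 1719 none), and chromosomes and promoters from RefSeq tables of GRCm38.p6. Motifs were searched on both strands, and a palindromic match was counted once. Array number limits the precision.

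The members and lists were chosen with earlier results of these data known. Named genes were every member with all its probes, Grhl2, up to 3 called members of each pathway list or else its brightest, and the 3 genes most correlated with a called member. Other genes, such as Bmpr1b, Gata2, Gata3 and Dlx3, were named after their values were seen. Alternatives covered background, normalization, the authors' values, filter, choice of probe, moderation, array weights, clone number, brightness and arrays left out. Quantile-normalized values without background correction matched the authors' values (largest difference 4.97e-14), so these alternatives are the same fit. Subclone and clone numbers are not stated to pair the samples, so the main fit used no pairing. Same-numbered arrays had correlations of their deviations from −0.08 to 0.05, which cannot decide whether samples were paired. With clone number as replicate block the SE went from 0.32 to 0.17 for Id1 and from 0.20 to 0.23 for Bmp4. No slide was given as a label, so no slide block was run.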

Additional observations from a re-analysis of the deposited data

Results flagged for a closer look

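In 52 groups of 4 arrays, the gap between the highest or lowest array and its neighbour was set against the group's range, and 4 groups exceeded Dixon's 95% critical value for 4 values. Chance alone passes about 1 group in 20. Id1 on wildtype 3 was 10.06, with the other wildtype arrays from 10.68 to 10.77. Id1 on knockout 3 was 9.38, with the other knockout arrays from 10.73 to 10.86. A Smad5 probe, ILMN_3076864, was 6.57 on wildtype 1, with the others from 6.20 to 6.25. Grhl2 on knockout 3 was 7.06, with the other knockout arrays from 7.86 to 7.99.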

How the results depend on the processing

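Id3 stayed lower in all 22 alternatives and past the threshold in 21, with changes from −1.60 to −0.59, the exception being the covariate of array mean intensity (−0.92, limma adjusted p = 0.515). The setting without background correction and the one with the authors' values gave identical results (−0.59 for Id3), so they are not separate support. Members past the threshold numbered 2 in place of 1, Id2 being the second, with a background offset of 50, median scaling, detection on all 8 arrays, trended robust moderation, array weights, the clone number as replicate block, and without both wildtype 3 and knockout 1. They were 1 or 2 with single arrays left out, 8 without normalization between arrays and 0 with the covariate. Without normalization the median of all genes was −0.58, and Id3 stood −1.02 from it.

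Over all genes, 5771 passed without normalization (99.4% lower, against 52.3% as reported), 1879 with median scaling (33.4% lower), 2175 with array weights, 671 with the replicate block, 7 with the covariate and 510 to 1440 with single arrays left out (1440 without wildtype 3). Other pathway genes numbered 27 without normalization, 8 with median scaling, 8 with weights, 0 with the covariate and 4 to 6 with single arrays left out, against 5. Under the replicate block, limma adjusted p rose above 0.05 for Tfap2a (0.0573) and for the called Bmpr1a (0.0767) and Smad1 (0.0742) probes, and was 0.0267 for Id2. Without normalization Fst was at 0.557 (limma adjusted p = 0.0502).

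Sign changes touched only genes and probes that had not passed. With the covariate, Id1 was 0.005, Id2 0.0232, Smad5 0.410, Gdf3 −0.0737 and Acvr2b −0.171. Without normalization, Bmpr1a was −0.672, Smad6 −0.416, Gdf3 −0.358, Acvr2b −0.552, Ppm1a −0.612, the third Smad1 probe −0.255, and Smad5 probes ILMN_3155789 −0.583 and ILMN_3076864 −0.231. With median scaling, Bmp7 was 0.0075, the dimmer Id2 probe 0.102 and the dimmer Smad6 probe 0.105. With probes averaged, Bmpr1a was −0.187, Smad5 0.0522 and Ppm1a −0.0778. With array weights, Bmpr1a was −0.0046 and Ppm1a −0.0267. Without both arrays, Bmp7 was 0.0131, Bmpr1a −0.0177, Ppm1a −0.0671 and ILMN_3155789 −0.0156. With an offset of 50 the third Smad1 probe was −0.0016. With single arrays left out, Id1 ran from −0.273 to 0.248, Bmpr1a from −0.0166 to 0.102, Acvr2b from −0.0154 to 0.172, Ppm1a from −0.0274 to 0.0533 and the third Smad1 probe from −0.168 to 0.123. The cause was not tested. Members near the detection limit (Id4, Bmp7) allow no order of small differences.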
